A study of Arabidopsis thaliana with 12 samples.

Results

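DI21 and AT1G01250 are 2 stress-linked genes of Arabidopsis thaliana whose array signal was lower in the psae2 mutant than in the wild type. They were chosen from a table of 3439 probes because the platform annotation gives each of them a probe of its own (1 probe each, of 692 probes that list a single gene, for 691 genes) and because their psae2 minus WT difference was negative and unequal between sample numbers 1 and 2, 3 and 4, and 5 and 6. That difference and its change between number pairs are therefore given as a description without a test. No shared probe listed either gene. The series holds total RNA of 6 psae2 samples, a mutant that per its labels has no PSI-E2, a stromal subunit of photosystem I, and of 6 WT samples. Both groups are of ecotype Columbia 0, numbered 1 to 6 in each group by the sample titles. The sources used here give no allele, tissue, age, growth conditions or array chemistry, and the meaning of a sample number is not stated.

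DI21 (locus AT4G15910) carries a name for induction by drought in the reference table and belongs to the late embryogenesis abundant (LEA) proteins. These are mostly hydrophilic proteins that accumulate in drying seeds and in water-stressed leaves and are thought to protect other proteins and membranes during water loss. Many of their genes respond to abscisic acid, the hormone of drought signalling. AT1G01250 encodes a member of the AP2/ERF family, plant transcription factors that bind DNA through the AP2 domain. The family includes ethylene response factors and the dehydration-responsive element binding proteins of cold and drought signalling. AT1G01250 carries no gene symbol in the reference table, and its own targets are not considered here. Transcript levels of each gene are read from 1 probe, so probe and gene effects cannot be told apart.

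The deposited values are linear intensities between 0 and 100, whose sums per array ran from 2972 to 3610. Column medians differed by up to 1.48-fold. Low values were raised to a floor set per array (at the 5th percentile of its values above 0, 0.0638 to 0.105), taken to log2 and quantile-normalized, which left 3009 entries, 602 of them single genes. PSAE2, the gene mutated in psae2, and its paralog PSAE1 had 0 probes each, so the genotype labels were not checked against the transcript. Within a group, samples 1 and 2 were alike, as were 3 and 4, and 5 and 6 (correlations of deviations from the group mean of 0.24 to 0.71, and -0.68 to -0.12 for samples of different pairs). Group means are therefore given over the 3 pair means. Fewer cells of a type and less RNA per cell cannot be told apart in such bulk samples.

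DI21 was a dim probe. In psae2 its deposited intensity was lowest at 0.119, with a median of 0.167 and a highest value of 0.235, and in the WT it was lowest at 0.220, with a median of 0.256 and a highest value of 0.314. Every sample was above the floor of its array, by 1.13 to 3.56 times in psae2 and by 2.68 to 4.44 times in the WT. The probe stood between the 18.1 and 37.5 percentile of its array in psae2 and between the 34.6 and 51.4 percentile in the WT. On the normalized log2 scale, DI21 averaged -2.72 ± 0.61 in psae2 and -1.86 ± 0.24 in the WT (SD, n = 3 pair means). The difference was -0.86, a 1.82-fold lower level in psae2. In 5 of 6 psae2 samples DI21 lay below the lowest WT sample, while psae2 sample 5 exceeded 3 WT samples, so the groups overlapped.

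AT1G01250 was brighter. Its deposited intensity in psae2 was lowest at 0.289, with a median of 0.789 and a highest value of 1.21, and in the WT it was lowest at 1.04, with a median of 1.14 and a highest value of 1.43. It was 4.53 to 11.5 times the floor in psae2 and 13.5 to 17.3 times the floor in the WT, so the floor touched no value of this gene. It stood anywhere from the 43.0 to the 86.4 percentile of the array in psae2 and kept to a narrow place in the WT, the 86.6 to 89.3 percentile. Normalized log2 levels averaged -0.62 ± 0.81 in psae2 and 0.27 ± 0.047 in the WT (SD, n = 3 pair means). The difference was -0.89, a 1.86-fold lower level in psae2. All 6 psae2 samples lay below all 6 WT samples, which held for 5.88% of all 3009 entries.

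**Figure D1:**
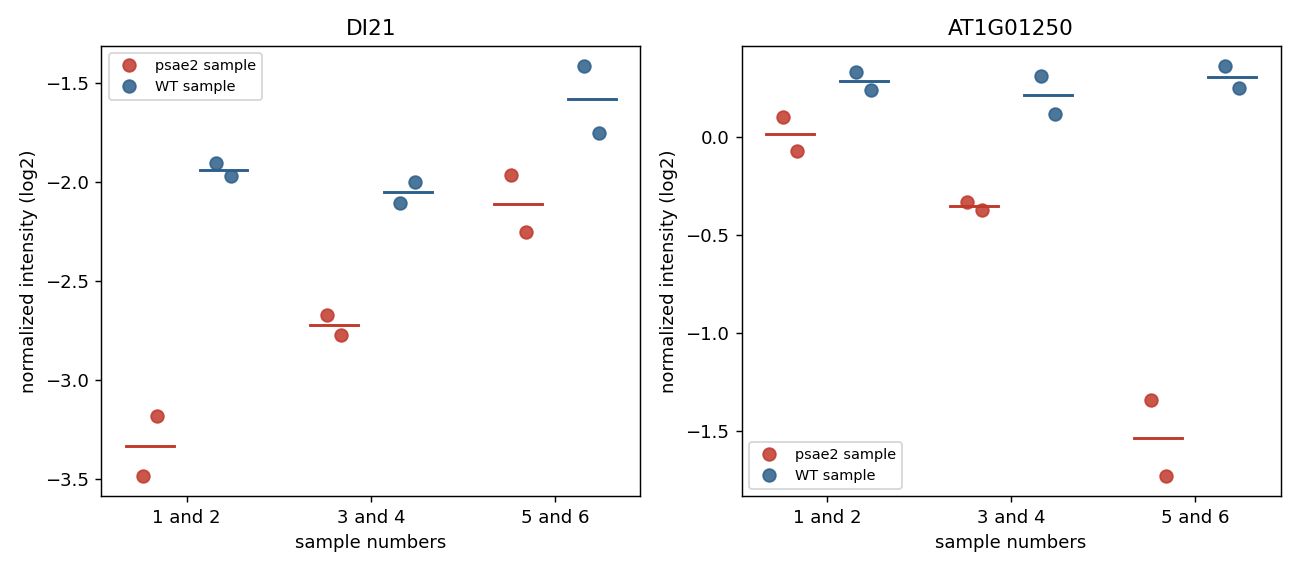
Normalized log2 intensity (vertical axis) of DI21 (left) and AT1G01250 (right) in each sample, by sample numbers (horizontal axis), with psae2 in red and WT in blue. Points are samples and bars the mean of the 2 samples of a pair: psae2 DI21 is lowest in numbers 1 and 2 (mean -3.33), psae2 AT1G01250 is lowest in numbers 5 and 6 (mean -1.53), and WT AT1G01250 stays between 0.12 and 0.36.

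The size of the DI21 difference depended on the number pair and was largest in numbers 1 and 2. There the normalized log2 level was -3.48 and -3.18 in psae2, against -1.90 and -1.97 in the WT, a difference of -1.40 or 2.63-fold lower in psae2. These psae2 samples 1 and 2 held the DI21 values nearest the floor, at 1.13 and 1.41 times it. Every other DI21 value was at least 1.83 times its floor, so the size of the largest difference rests on near-floor values. In numbers 3 and 4 it was -2.67 and -2.77 in psae2, against -2.10 and -1.997 in the WT, a difference of -0.67 or 1.59-fold. In numbers 5 and 6 it was -1.97 and -2.25 in psae2, against -1.41 and -1.75 in the WT, a difference of -0.53 or 1.44-fold. The 2 samples of a pair differed by 0.10 to 0.30 in psae2 and by 0.070 to 0.33 in the WT, less than the difference between genotypes in each pair. On the deposited scale the mean psae2 intensity was 48.5% of the mean WT intensity in numbers 1 and 2, 73.5% in numbers 3 and 4 and 75.9% in numbers 5 and 6. Numbers 3 and 4 and numbers 5 and 6 thus gave similar decreases, and numbers 1 and 2 stood apart from them.

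AT1G01250 had its largest difference in the opposite pair, numbers 5 and 6. In numbers 1 and 2 its normalized log2 level was 0.11 and -0.070 in psae2, against 0.33 and 0.24 in the WT, a difference of -0.27 or 1.21-fold lower in psae2. In numbers 3 and 4 it was -0.33 and -0.37 in psae2, against 0.32 and 0.12 in the WT, a difference of -0.57 or 1.48-fold. In numbers 5 and 6 it was -1.34 and -1.73 in psae2, against 0.36 and 0.25 in the WT, a difference of -1.84 or 3.58-fold. The 2 samples of a pair differed by 0.040 to 0.39 in psae2 and by 0.087 to 0.20 in the WT. On the deposited scale the mean psae2 intensity was 83.5%, 72.3% and 30.3% of the mean WT intensity in numbers 1 and 2, 3 and 4, and 5 and 6. Without numbers 5 and 6 in either group the difference of AT1G01250 was -0.42, against -0.89 over all samples. That of DI21 was -0.60 without numbers 1 and 2.

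Despite these unequal sizes the direction was shared. Both psae2 samples lay below both WT samples in each of the 3 pairs for DI21 and for AT1G01250, as they did for 12.9% of all entries. Taken number by number, psae2 was below the WT at 6 of 6 numbers for each gene, with differences of -1.58 to -0.50 for DI21 and -1.98 to -0.22 for AT1G01250. The genes were selected for being lower in psae2, so these counts add no support.

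**Figure D2:**
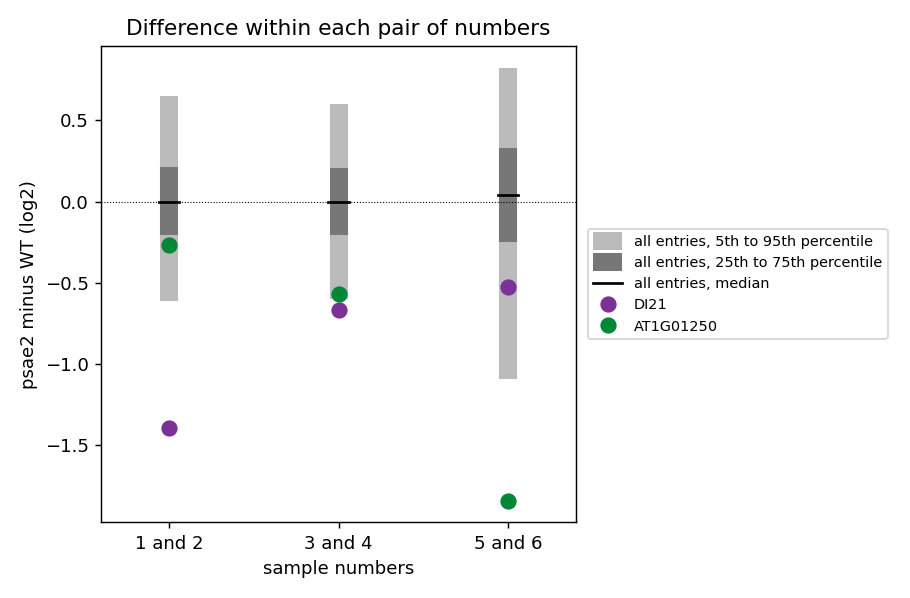
psae2 minus WT difference in normalized log2 intensity (vertical axis) within each pair of sample numbers (horizontal axis) for DI21 and AT1G01250, over the spread of all 3009 entries as percentile bars. DI21 lies below the 5th percentile of -0.613 in numbers 1 and 2 and AT1G01250 below that of -1.09 in numbers 5 and 6.

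Against the other entries each gene was extreme in the pair of its largest difference. The genes were selected on these differences, so the ranks are a description and add no support. In numbers 1 and 2 only 27 of 3009 entries (0.897%) had a lower difference than DI21, against 584 (19.4%) for AT1G01250. In numbers 5 and 6 the order was turned round, with 26 entries (0.864%) lower than AT1G01250 and 425 (14.1%) lower than DI21. In numbers 3 and 4 they were close to each other, with 119 and 171 entries below DI21 and AT1G01250. Differences over all entries were also more spread out in numbers 5 and 6 (SD 0.581 across entries) than in numbers 1 and 2 (0.423) or 3 and 4 (0.401).

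The change between number pairs lay mainly in the psae2 samples. For AT1G01250 the 3 pair means spanned 1.55 in psae2 and 0.089 in the WT, and for DI21 they spanned 1.22 in psae2 and 0.47 in the WT. The median span over all entries was 0.408 in psae2 and 0.307 in the WT. A wider psae2 span than that of AT1G01250 was found in 143 entries (4.75%), and a narrower WT span in 243 (8.08%). Apart from AT1G01250 itself, 6 entries met both limits at once, 2 of them single genes. For DI21 the psae2 span was exceeded by 241 entries (8.01%), but its WT span was wider than that of 74.4% of entries. Numbers 5 and 6 minus numbers 1 and 2 gave 1.22 for DI21 and -1.55 for AT1G01250 in psae2, against 0.36 and 0.019 in the WT. DI21 thus had its lowest psae2 level in the pair where AT1G01250 had its highest.

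**Figure D3:**
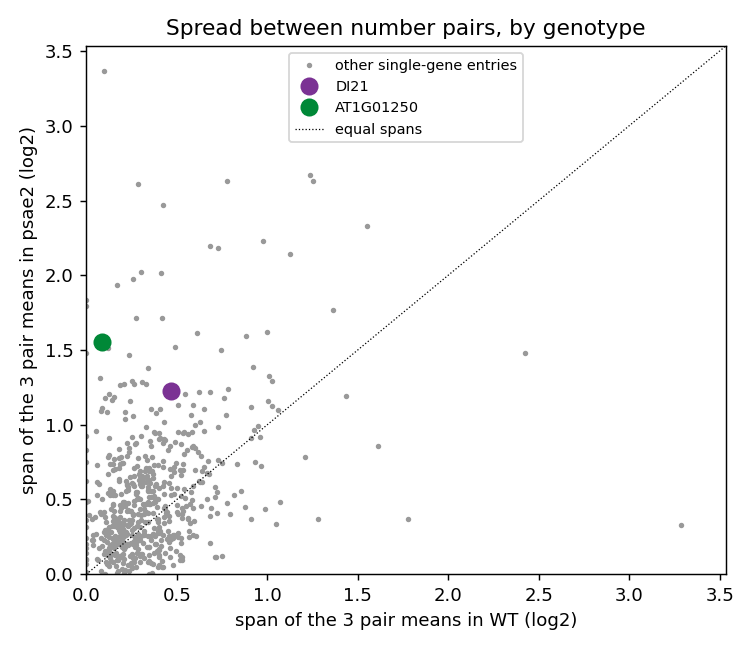
Span of the 3 pair means of normalized log2 intensity in psae2 (vertical axis) against that in the WT (horizontal axis) for the 602 single-gene entries. AT1G01250 (1.55 in psae2, 0.089 in WT) lies near the vertical axis, and DI21 (1.22 in psae2, 0.47 in WT) also lies above the dotted line of equal spans.

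Of the total sum of squares of DI21 over 12 samples, 54.2% went with genotype and 31.5% with the number pair, averaged over genotypes. A further 10.5% went with a change of the genotype difference between pairs and 3.76% with the 2 samples of a pair. For AT1G01250 the shares were 46.4%, 24.2%, 27.0% and 2.34% in the same order. The number pair share averages the genotypes, so a change in psae2 alone enters it too. For AT1G01250 the WT pair means spanned only 0.089, against 1.55 in psae2. Medians over all entries were 18.7%, 32.3%, 11.9% and 13.2%. The share of a changing genotype difference was therefore below the median of all entries for DI21 and above it for AT1G01250. The range of the 3 pair differences was 0.87 for DI21 and 1.57 for AT1G01250, with a median of 0.377 over all entries. A wider range was found in 415 entries (13.8%) for DI21 and in 117 (3.89%) for AT1G01250, and a range over 1 in 10.6% of entries.

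Among the 602 single-gene entries AT1G01250 ranked 6th and DI21 8th by the size of the decrease. The genes just above AT1G01250 were AT5G66090 (-1.01), AT1G21350 (-1.06) and AT3G52070 (-1.10), and AT3G15490 (-0.89) stood between the pair. Those just below DI21 were AT3G52960 (-0.85), AT5G35100 (-0.83) and AT4G15840 (-0.80). These neighbours differed widely in their dependence on the number pair. AT4G15840 had differences of -0.67, -0.79 and -0.94 in numbers 1 and 2, 3 and 4, and 5 and 6, a range of 0.27. AT3G15490 had 0.45, -0.16 and -2.96, so that its average rested on numbers 5 and 6. A difference below 0 in all 3 pairs was seen in 23.5% of all entries and in 126 of the single genes. Of these 126, the largest decrease fell in numbers 5 and 6, as for AT1G01250, in 63, in numbers 1 and 2, as for DI21, in 36, and in numbers 3 and 4 in 27.

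The single genes with the most similar profiles were found by Pearson correlation of normalized log2 intensity over the 12 samples, given as a description because the samples share genotypes and number pairs. CYN, which encodes cyanase, an enzyme that breaks down cyanate, was most like DI21 (r = 0.92). Its differences of -0.97, -0.80 and -0.62 in numbers 1 and 2, 3 and 4, and 5 and 6 were also largest in numbers 1 and 2. Next came AT4G30680 (r = 0.92), AT2G21720 (0.90), AT1G18290 (0.90) and AT3G47980 (0.89), with smaller overall differences of -0.31, -0.67, -0.41 and -0.46. AT4G30680 was the only one of these 4 with its largest difference in numbers 1 and 2 (-0.50). The most opposite profiles were those of AT2G29870 (r = -0.92), AT1G07970 (-0.88) and AT5G14590 (-0.87), all at a higher mean level in psae2.

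AT1G01250 had closer matches. AT5G63490 (r = 0.96), AT5G35100 (0.96), AT3G52960 (0.95), AT5G17840 (0.95) and AT2G17670 (0.95) all had their lowest difference in numbers 5 and 6, from -1.97 for AT3G52960 to -1.19 for AT5G17840 and AT2G17670. In numbers 1 and 2 their differences ran from -0.31 for AT5G35100 to 0.26 for AT3G52960. AT3G52960 was under the floor in 2 of 12 samples. After each group's mean was taken off, the correlations of these 5 genes with AT1G01250 were 0.92 to 0.96. The most opposite profiles were those of AT2G40980 (r = -0.94), NTRC (-0.94) and AT1G22660 (-0.92). NTRC, a chloroplast thioredoxin reductase that feeds electrons to peroxiredoxins, had differences of 0.056, 0.13 and 0.47 in numbers 1 and 2, 3 and 4, and 5 and 6.

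**Figure D4:**
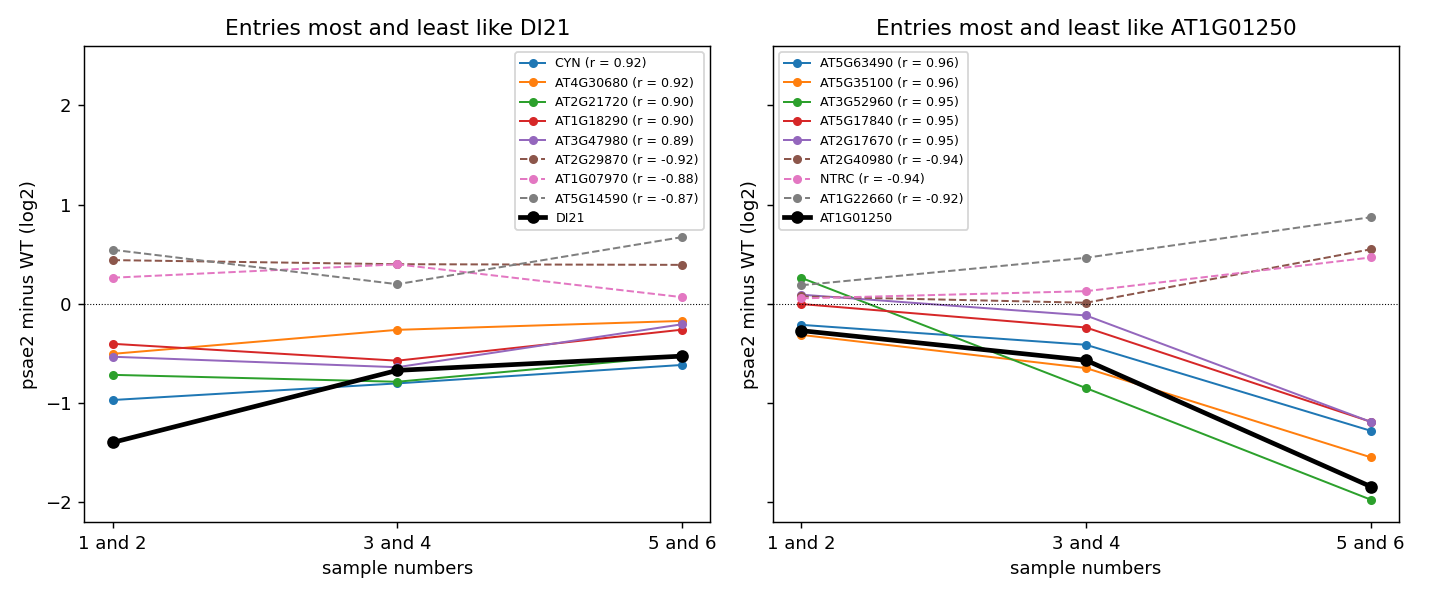
psae2 minus WT difference in normalized log2 intensity (vertical axis) by sample numbers (horizontal axis) for DI21 (left, black) and AT1G01250 (right, black), with the 5 single genes of highest (solid) and 3 of lowest (dashed) correlation over 12 samples. Lines only join the values of 1 gene: all 5 genes most like AT1G01250 are lowest in numbers 5 and 6, and CYN, most like DI21, is lowest in numbers 1 and 2.

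Other genes of the same pathways with a probe of their own were sought in lists matched on gene symbols or synonyms. Of the 950 reference genes in 9 lists (AP2/ERF family, LEA family, drought and cold, abscisic acid, senescence, oxidative stress, heat shock, other stress transcription factors, and root, flower and seed genes), 1 had such a probe, NTRC in the oxidative stress list. It did not pass the test in limma over 12 samples (log2 difference 0.22, adjusted p = 0.101). In each of the other 8 lists 0 genes were counted with a probe of their own. Family members that carry only a locus number or another name were not matched, so neither gene was set beside its own family here.

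Some genes with a stress-linked name and a probe of their own were therefore picked from the annotation, after the data were seen. These genes may be an incomplete set, so counts and medians over them depend on the names taken. Of these 7, 1 was higher and 0 were lower in limma over 12 samples at an adjusted p under 0.05, where 22.3% of all entries passed, 11.9% higher and 10.4% lower. At an unadjusted p under 0.05, 5 of the 7 passed, against 35.7% of all entries. GLDH, the enzyme of the last step of ascorbate synthesis, rose, with a level of -1.42 ± 0.37 in psae2 and -2.15 ± 0.21 in the WT (SD, n = 3 pair means; log2 difference 0.73; limma adjusted p = 0.00585 over 12 samples). Its adjusted p in limma was 0.163 with averaged pairs and 0.0403 in a fit with a random effect for each pair. With averaged pairs 0 of the 7 passed after adjustment, against 2.63% of all entries, and 1 of the 7 passed unadjusted at 0.05, against 19.1%. With the random effect GLDH was the 1 of 7 that passed, against 6.02% of all entries.

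The other 6 did not pass in limma over 12 samples. XERICO, a RING-type protein that raises abscisic acid levels when overexpressed, had a level of 1.34 ± 0.20 in psae2 and 1.06 ± 0.13 in the WT (SD, n = 3; limma adjusted p = 0.0551). SIS, a gene named for induction by salt, had a difference of -0.33 (limma adjusted p = 0.0873, or 0.0263 with the replicate number as a block) and was the only one of the 7 below the WT in all 3 pairs, by 0.42, 0.45 and 0.12. CCS, the copper chaperone of superoxide dismutase, SRX, which reduces overoxidised peroxiredoxin, and GLX2-1 had differences of -0.09, 0.17 and 0.77. The value of GLX2-1 came from numbers 5 and 6 (2.08, against 0.16 and 0.082 in the other pairs), and it was under the floor in 2 of 12 samples. The median difference of the 7 genes was 0.218, against 0.0128 over all entries.

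From families other than AP2/ERF, 7 genes named as transcription factors had probes of their own and were gathered in the same way. In limma over 12 samples 0 of 7 passed, against 22.3% of all entries, and 1 did at an unadjusted p under 0.05, against 35.7%. With averaged pairs, and with a random effect for each pair, 0 of 7 passed in limma before or after adjustment, against 19.1% and 20.9% of all entries before it. Differences ran from -0.17 for AGL26 to 0.22 for AGL103, through LAS (-0.04), TCP15 (0.04), SPL (0.05), IAA31 (0.08) and AGL54 (0.14), and 0 of 7 were below the WT in all 3 pairs.

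In the gene order of the reference table, 1 of the 20 protein-coding genes nearest to DI21 had a probe of its own, and 0 of the 20 nearest to AT1G01250 did. The 1 gene was AT4G15840, 7 places from DI21. It was lower in psae2 by 0.80 on the log2 scale (limma adjusted p = 0.000556 over 12 samples, and 0.0743 with averaged pairs), with its largest difference in numbers 5 and 6, not in numbers 1 and 2.

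Under each scaling tried, the largest difference stayed in numbers 1 and 2 for DI21 and in numbers 5 and 6 for AT1G01250. With arrays centred on their medians, the DI21 difference was -1.25, -0.61 and -0.56 in numbers 1 and 2, 3 and 4, and 5 and 6, and with the values as deposited it was -1.05, -0.44 and -0.40. When an offset replaced the floor it was -0.92, -0.47 and -0.41, with a smaller excess in numbers 1 and 2; the offset was 0.0812, and the dimmest DI21 value 0.119. AT1G01250 had -0.47, -0.63 and -1.90 with median centring, -0.26, -0.47 and -1.73 as deposited and -0.25, -0.52 and -1.62 with the offset. As deposited the median of all entries was shifted by 0.173 towards psae2. Relative to that shift the overall differences were -0.80 for DI21 and -0.99 for AT1G01250.

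**Figure D5:**
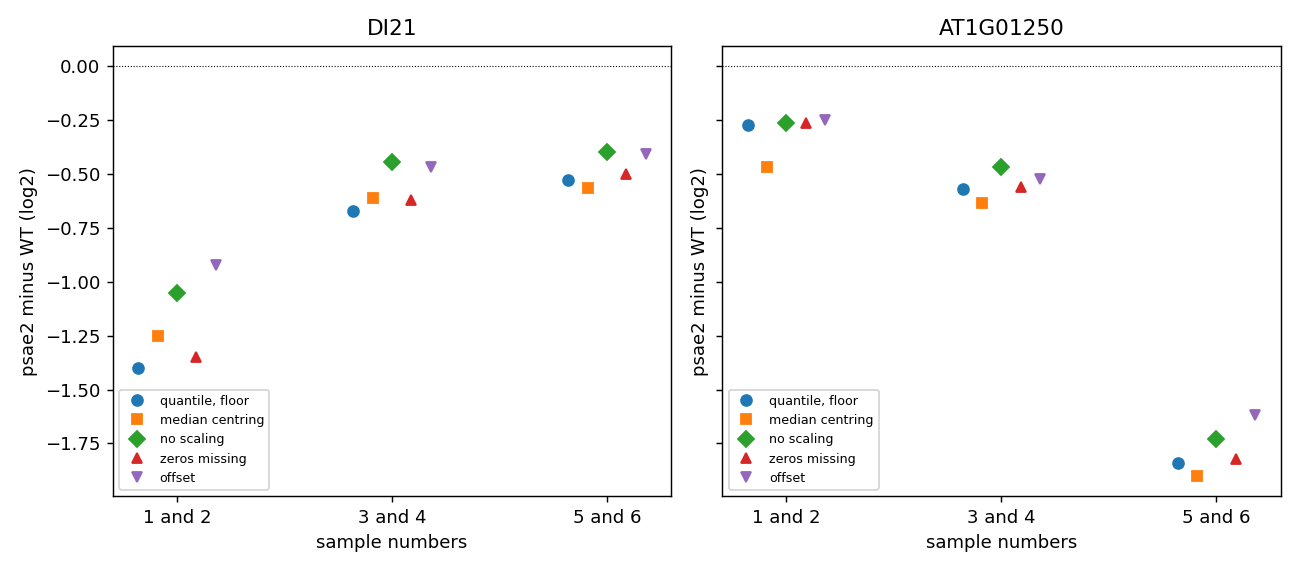
psae2 minus WT log2 difference (vertical axis) by sample numbers (horizontal axis) for DI21 (left) and AT1G01250 (right) under 5 ways of scaling and handling low values. In each of the 5, DI21 is lowest in numbers 1 and 2 (-1.40 to -0.92) and AT1G01250 in numbers 5 and 6 (-1.90 to -1.62).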

How the data were processed

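The authors deposited 1 table of intensity values, with 1 column for each of 12 samples; the sources used here do not give background correction or scaling, and all columns belonged to a sample. Probes were named by the platform annotation: 692 list 1 gene, 870 several and 1877 none, and probes with several genes named none. The reference table (assembly TAIR10.1) served for names and gene order. Left out were 429 probes that no array measured above its floor, and probes of the same gene were averaged. Differences were fitted with limma 3.58.1 (lmFit, eBayes, Benjamini-Hochberg over 3009 entries, threshold 0.05) in R 4.3.3 over 12 samples without covariates. On simulated data with errors shared within pairs, this fit made many more false calls than fits with averaged pairs or a random pair effect, so calls over 12 samples alone are weak. The simulated errors were drawn separately in each group, unlike the data, where the same number correlated across groups. The rate of false calls in these data was therefore not measured. Other fits averaged pairs of numbers, or gave each pair within a group a random effect. With no word on separate plants or cultures, p-values measure only the spread between these samples, which may be technical. Precision is limited by the number of arrays.

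The same number in the other group correlated at 0.34 to 0.53 in all 6 cases, so the groups share a pattern by number, as read from the data and not from the labels. Different numbers were not compared across groups, so a match by single number and a match by number pair cannot be told apart. DI21, AT1G01250 and all lists were chosen with earlier results of these data known. Named genes were both of these, up to 6 measured members of each list, the 5 most and 3 least correlated single genes, measured genes among the 10 on either side in gene order, and the 3 single genes on either side by size of difference. The 7 stress-linked and 7 transcription factor genes were added later by name. Dixon's ratio set no sample of either gene apart from its group, but it judges each extreme value singly. The alike samples of a pair can hide each other from it. Figures were drawn with matplotlib 3.10.9.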

Additional observations from a re-analysis of the deposited data

How the results depend on the processing

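The differences of DI21 and AT1G01250 were negative in every alternative that gave them a value. With 1 sample left out (other values as normalized over 12 arrays) they were -1.01 to -0.711 for DI21 and -1.04 to -0.671 for AT1G01250. Of these overall differences that of AT1G01250 moved most, to -0.419 without numbers 5 and 6, which is the pair with its largest difference. Of the differences by pair, that of DI21 in numbers 1 and 2 moved most, to -0.92 with the offset. Over all entries 671 passed in limma. This became 79 with averaged pairs, 181 with a random pair effect, 1010 in the fit with a replicate block, 44 with both averaged pairs and a replicate block, 304 without numbers 3 and 4, and 559 to 686 with 1 sample left out. The cause was not tested. The share of calls higher in psae2 was 53.4%, against 84.0% as deposited and 47.2% with median centring. Of the lists, NTRC passed as deposited (1 call in place of 0). Of the 14 added genes, NTRC among them, and AT4G15840, the replicate block changed the call of SIS alone (adjusted p 0.0873, and 0.0263 in the block). Low signal limits DI21, down to 1.13 times the floor in psae2 sample 1, which belongs to the pair with its largest difference.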
